A study of Rattus norvegicus with 12 samples.

Results

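Creatine kinase is represented here by the muscle subunit Ckm (ENSRNOG00000016837) and the brain subunit Ckb (ENSRNOG00000010872), 2 of the 32883 genes in the count table. They were picked by these identifiers, and the symbols are the ones given with them, since the table lists identifiers only. Both had counts in all 12 libraries and both were among the 10491 genes tested after a filter on low counts. The cells were heart muscle cells (cardiomyocytes) from the ventricles of newborn Wistar rats, aged 2 days by the sample labels, isolated by trypsin digestion and a Percoll density gradient. Each treatment had 3 libraries of total RNA (input) and 3 of RNA recovered with an antibody against the RNA-binding protein Cpeb4 (IP). The treatments were mock and phenylephrine (PE, an alpha-adrenergic agonist that induces hypertrophy of cardiomyocytes) for 24 h. All cells were primary, with no transgene or deletion named, and pooling of animals is not stated. A control precipitation without that antibody was not analysed here, so IP against input compares RNA pools, and the level of the Cpeb4 transcript was not checked.

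Creatine kinases move a phosphate group between ATP and creatine, which buffers ATP where muscle uses it fast. The cytosolic enzyme is a dimer of M subunits, B subunits or both. Ckm encodes the M subunit, which prevails in mature skeletal and heart muscle and is in part bound to the sarcomere. Ckb encodes the B subunit, abundant in brain and smooth muscle and in the fetal heart, where it precedes the rise of Ckm during maturation. Cpeb4 belongs to a family of proteins that bind U-rich elements near the ends of messenger RNAs and act on their poly(A) tails and translation.

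The promoters are shown because the genes encode subunits of the same enzyme but differ at their starts. They are RefSeq sequences on the GRCr8 assembly, from 250 bases before to 50 bases after the transcript start, 5′ to 3′ on the gene's strand. The Ckm window is chr1:88189211-88189510 on the plus strand and the Ckb window chr6:136553415-136553714 on the minus strand. Capitals mark every match, on either strand, to the E-box CANNTG, to TATAAA or to TATATA, to the CCAAT motif, to the GC box GGGCGG, and to the CArG box and the MEF2 site, which are the binding motifs of serum response factor and of the MEF2 factors.
Ckm: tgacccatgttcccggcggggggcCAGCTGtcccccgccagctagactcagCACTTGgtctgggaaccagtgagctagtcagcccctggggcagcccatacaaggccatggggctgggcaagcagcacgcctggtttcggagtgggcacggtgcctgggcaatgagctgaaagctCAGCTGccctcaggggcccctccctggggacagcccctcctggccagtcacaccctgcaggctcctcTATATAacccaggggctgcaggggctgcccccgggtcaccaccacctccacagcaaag
Ckb: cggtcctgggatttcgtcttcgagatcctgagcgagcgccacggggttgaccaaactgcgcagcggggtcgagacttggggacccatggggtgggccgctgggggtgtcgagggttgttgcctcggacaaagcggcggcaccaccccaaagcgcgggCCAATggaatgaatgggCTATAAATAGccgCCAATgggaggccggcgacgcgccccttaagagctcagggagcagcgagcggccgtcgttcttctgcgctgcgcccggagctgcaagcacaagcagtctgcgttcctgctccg

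The Ckm window held 3 E-boxes and 1 TATATA, whose first base was at -8 from the annotated transcript start. The Ckb window held 2 CCAAT motifs and 1 MEF2 site that overlaps its only TATAAA, whose first base was at -75. Among 33469 rat promoter windows of this length, 72.1% held an E-box, 14.2% TATAAA, 6.15% TATATA, 37.5% CCAAT and 3.29% a MEF2 site. GGGCGG (33.1% of windows) and the CArG box (1.64%) matched in neither gene. Base composition differed in CG dinucleotides, with 7 in the Ckm window and 30 in the Ckb window. The median window held 7, and 89.7% of windows held fewer than that of Ckb. Letters alone show no binding, and the libraries measured transcript ends, not promoters.

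Library totals ran from 1423334 to 30216559 counts. Counts were found for 8455 to 11822 genes in a library, and the 3 libraries with the fewest genes were not the shallowest. These were input and IP of mock replicate 2 (9434 and 8455 genes from 4981399 and 17838962 counts) and input of PE replicate 1 (8887 genes from 5167090 counts). Results are therefore also given with mock replicate 2 and PE replicate 1 left out of input and IP, which removes 4 libraries. IP of PE replicate 1 (10857 genes from 30216559 counts) was not among the 3 and was left out with the input of its number. It was the deepest library, yet IP of PE replicate 3 held more genes (11822 from 5053801 counts). Mock IP replicate 3, which was kept, likewise held fewer genes (10621 from 15448755 counts) than mock IP replicate 1 (11305 from 5030021 counts). Levels are in CPM, in which each library is scaled to the same total, with TMM factors that correct for composition. The libraries came from a 3′ end kit that reads the end of a transcript, so counts are not scaled by transcript length. Reads without molecular identifiers are not independent molecules, and the intervals on counts cover counting error only. The labels do not say that replicates were separate cultures or animals, and the p-values reflect only the spread among these libraries, possibly technical. In such bulk RNA, fewer cells of a type and less RNA per cell cannot be told apart. Markers of cardiomyocytes and of other heart cells were not checked, as the table could not be given symbols. The same holds for the other genes of the creatine system, Ckmt1, Ckmt2, Slc6a8, Gatm, Gamt, Slc25a4 and Ak1.

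Ckm had the higher count of the pair in 11 of 12 libraries. In mock input its level was 744, 1128 and 400 CPM in replicates 1, 2 and 3, from 3082, 4940 and 297 counts. In mock IP it was 600, 948 and 556 CPM. The mock groups overlapped, and replicate 2 was the highest library in both. PE input held 360, 442 and 581 CPM of Ckm, and PE IP held 355, 109 and 259 CPM. Replicate 2 was the lowest of the PE precipitates. By group mean on this scale the order was mock input (757 ± 365 CPM, SD, n = 3), mock IP (701 ± 215, n = 3), PE input (461 ± 112, n = 3) and PE IP (241 ± 124, n = 3). Mock input and mock IP overlapped, mock IP and PE input overlapped in range, and PE input and PE IP did not. Scaled by library totals alone the order was mock IP (1005 ± 329 CPM), mock input (521 ± 415), PE IP (379 ± 199) and PE input (331 ± 12.8). The order of input and IP means thus turned in both treatments, and the PE mean stayed below the mock mean in both RNA pools. Scaled by library totals, the lower PE mean in input rested on mock replicate 2. By library totals mock input held 363, 992 and 209 CPM in replicates 1, 2 and 3, and PE input 344, 319 and 330 CPM. With TMM scaling the fit without mock input replicate 2 kept the sign (log2 fold change -0.31). Ckm ranked between 108 and 334 by count in 11 libraries and 911 in PE IP replicate 2, whose 368 counts gave an exact 95% Poisson interval of 331 to 408.

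Ckb was lowest in mock input, at 74.6, 162 and 48.4 CPM in replicates 1, 2 and 3, from 309, 710 and 36 counts. The 36 counts of replicate 3 gave an exact 95% Poisson interval of 25.2 to 49.8. Mock IP held 141, 309 and 180 CPM, PE input 291, 101 and 89.9 CPM, and PE IP 224, 158 and 81.2 CPM of Ckb. Replicate 2 was highest in both mock groups and replicate 1 in both PE groups. These are the same 4 libraries that the alternative above leaves out. The group means were 210 ± 88.0 CPM (SD, n = 3) in mock IP, 161 ± 113 (n = 3) in PE input, 154 ± 71.6 (n = 3) in PE IP and 95.1 ± 59.6 (n = 3) in mock input. Each neighbouring pair in this order overlapped in range. Scaled by library totals alone the means were 301 ± 132 CPM in mock IP, 241 ± 113 in PE IP, 134 ± 126 in PE input and 68.1 ± 64.7 in mock input. Ckb ranked between 349 and 1908 by count.

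**Figure D1:**
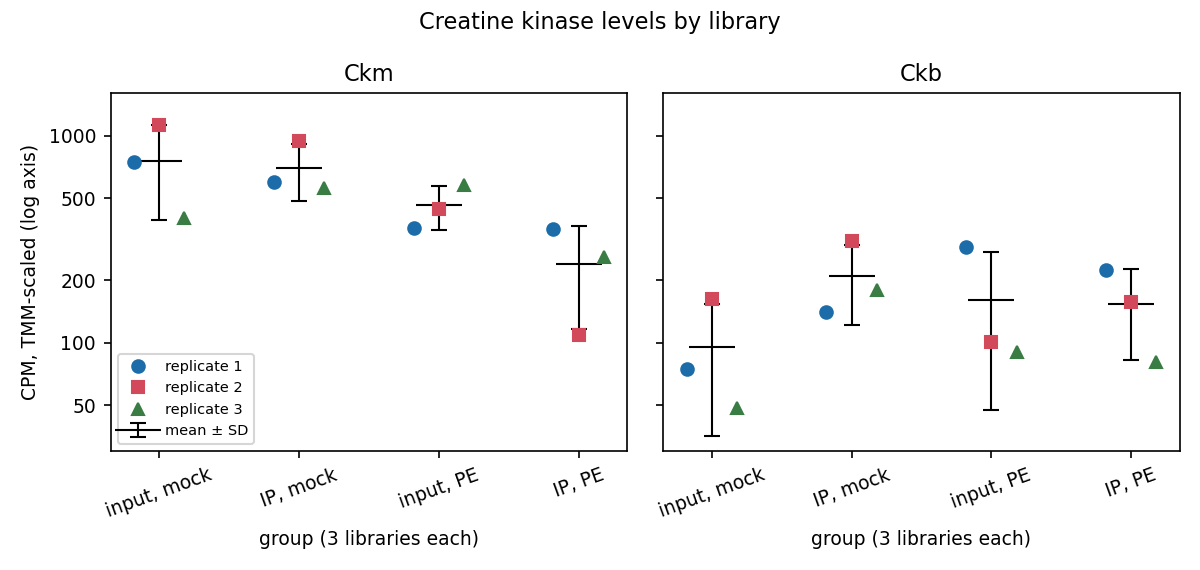
Levels of Ckm (left) and Ckb (right) in CPM with TMM scaling on a log axis, by group; points are libraries, coloured by replicate number, and the bar and whiskers are the mean and SD of 3 libraries. On this scale Ckm in PE IP lies at 109 to 355 CPM and in mock IP at 556 to 948 CPM, and Ckb lies at 48.4 to 309 CPM over all groups.

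The balance of Ckm and Ckb counts lay further towards Ckb in PE than in mock libraries in the test over all libraries, input and IP. This call depended on how the libraries were counted. The Ckb share, its counts as a percentage of the counts of both genes, does not depend on how libraries are scaled. In mock input it was 9.11% (exact binomial 95% interval 8.16 to 10.1), 12.6% (11.7 to 13.5) and 10.8% (7.69 to 14.7) in replicates 1, 2 and 3. PE input had 44.7% (43.0 to 46.5), 18.5% (16.9 to 20.3) and 13.4% (12.8 to 14.0). All PE inputs were above all mock inputs, and replicate 1 was far above the other PE inputs. Of single genes, 9.85% had no overlap between these groups in CPM, and shares of other gene pairs were not computed. Mock IP had 19.0% (18.0 to 20.1), 24.6% (24.1 to 25.1) and 24.5% (23.8 to 25.1). PE IP had 38.8% (38.2 to 39.3), 59.2% (55.9 to 62.4) and 23.9% (22.3 to 25.5). PE IP replicate 3 lay within the mock precipitates and the other PE precipitates above them. In PE IP replicate 2, Ckb (534 counts) exceeded Ckm (368 counts), which happened in no other library. As both genes differ in sequence and in where their reads were counted, the share is one of counts, not of molecules.

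Over input and IP together, the mean Ckb share was 16.3 percentage points higher in PE than in mock cells (two-sided exact permutation test within sample type, n = 6 against 6, p = 0.015, 0.03 after Benjamini-Hochberg adjustment over 2 such tests). The difference was 14.7 points in input (10.8% ± 1.73 in mock and 25.6% ± 16.8 in PE, SD, n = 3 each, exact permutation p = 0.1) and 17.9 points in IP (22.7% ± 3.19 and 40.6% ± 17.7, n = 3 each, exact permutation p = 0.3). The smallest exact permutation p for 3 libraries against 3 is 0.1. A higher share need not mean more Ckb. Mean Ckb in IP was lower in PE than in mock cells (154 against 210 CPM, TMM-scaled), and so was Ckm (241 against 701 CPM). In input mean Ckb was higher in PE cells (161 against 95.1 CPM) and Ckm lower (461 against 757 CPM). Without PE input replicate 1 the Ckb log2 fold change in input was -0.02. None of these differences passed in the test over all genes given below. Input and IP of the same number carry the same letter in the table's headers, so they may come from the same cells and the combined test may count the same cells more than once. Averaged per number, an alternative added after the data were seen, the share was 14.1%, 18.6% and 17.6% in mock and 41.7%, 38.9% and 18.6% in PE cells, a difference of 16.3 points with an exact permutation p of 0.1, the smallest possible. The combined call was also lost when any of the 6 mock libraries was left out (15.4 to 16.8 points, adjusted exact permutation p 0.07 to 0.095). It was kept when any of the 6 PE libraries was left out (11.5 to 20.5 points, 0.01 to 0.04). Gain or loss of the call thus did not follow the size of the difference, which moved more with the PE libraries. Without these 4 libraries (mock replicate 2 and PE replicate 1, input and IP) the difference was 12.9 points (exact permutation p = 0.111, smallest possible 0.0556). In input alone it fell to 5.13 points without PE replicate 1, the library at 44.7%. In IP alone it was 8.63 points without PE replicate 2.

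The Ckb share was also higher in the precipitate than in the input in 5 of 6 same-numbered pairs. In mock cells the differences ran from 9.89 to 13.7 percentage points, and all 3 precipitates lay above all 3 inputs (exact permutation p = 0.1, the smallest possible). Between these groups 17.9% of single genes had no overlap in CPM, and how often shares of other gene pairs separate was not computed. PE pairs differed by -5.99, 40.7 and 10.5 points in replicates 1, 2 and 3, and their groups overlapped (mean difference 15.1 points, exact permutation p = 0.4). Over both treatments the difference was 13.5 points and did not pass (two-sided exact permutation test within treatment, n = 6 against 6, p = 0.075, adjusted 0.075). On the log2 ratio of Ckb to Ckm counts, which weighs low shares more, it was 1.19 and passed (exact permutation p = 0.04, adjusted 0.04). It passed as well without PE input replicate 1 (18.3 points, adjusted exact permutation p = 0.025) or PE IP replicate 3 (17.6 points, 0.045). It fell to 8.81 points without PE IP replicate 2 and to 10.4 points without PE input replicate 3 (adjusted exact permutation p = 0.215 and 0.235). Without mock replicate 2 and PE replicate 1 it was 18.7 points over both treatments (exact permutation p = 0.0556, the smallest possible, adjusted 0.111) and 25.6 points in PE cells. In PE cells alone the difference was 24.7 points without input replicate 1, 8.98 points without input replicate 3, 23.4 points without IP replicate 3 and 5.76 points without IP replicate 2.

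**Figure D2:**
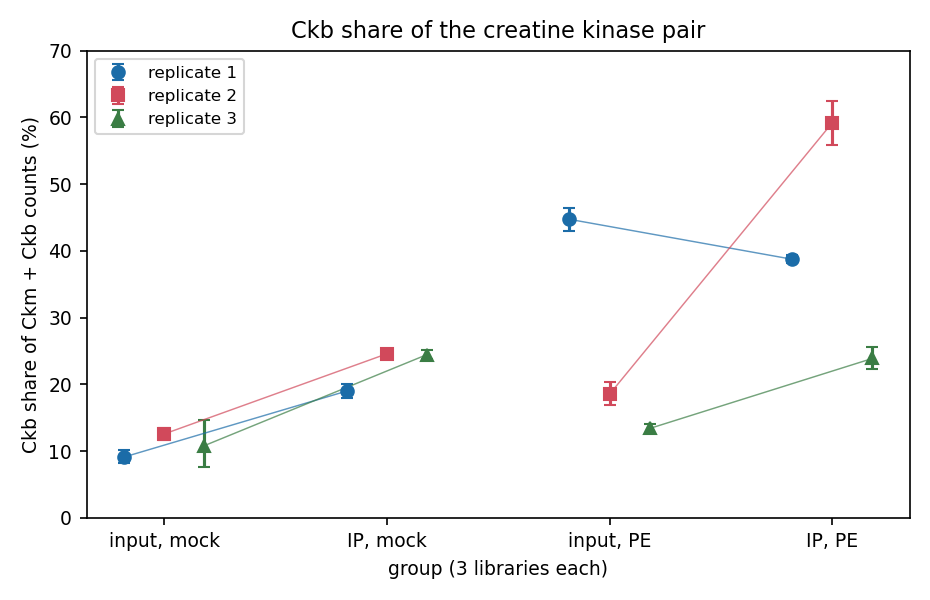
Ckb share of the summed Ckm and Ckb counts in percent, by group; points are libraries with exact binomial 95% intervals, coloured by replicate number, and lines join input and IP of the same treatment and number. Mock shares run from 9.11% to 12.6% in input and 19.0% to 24.6% in IP, and PE shares spread from 13.4% to 59.2%.

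In the test over all genes, PE against mock changed neither member past the threshold, an adjusted p under 0.05. Ckm in the precipitates came nearest, with a log2 fold change of -1.54 (SE 0.44, 95% interval -2.47 to -0.62, edgeR quasi-likelihood test, adjusted p = 0.633). Mean levels were 701 CPM in mock IP and 241 CPM in PE IP, with no overlap between the groups. It had the 44th smallest p of 10491 genes, and 94.7% of genes had a higher log2 fold change. Of all genes tested, 0.00953% passed in this comparison and 14.9% had no overlap between the groups. Without a filter on low counts Ckm passed (log2 fold change -1.54, edgeR adjusted p = 0.0403), as did 0.19% of the 15786 genes then tested. Over all other alternatives its adjusted p ran from 0.0585 without the 4 libraries (log2 fold change -1.67) to 1.00. The Ckm estimate was -1.19 without PE IP replicate 2, the library with 368 Ckm counts, and -1.93 without PE IP replicate 1. Ckb in the precipitates had a log2 fold change of -0.44 (SE 0.54, 95% interval -1.59 to 0.70, edgeR adjusted p = 1.00), and its groups overlapped. That value was -0.82 without PE IP replicate 1, -0.14 without PE IP replicate 3 and -0.05 without mock IP replicate 2.

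In input, PE against mock gave Ckm a log2 fold change of -0.72 (SE 0.43, 95% interval -1.63 to 0.19, edgeR adjusted p = 1.00) and Ckb 0.74 (SE 0.54, 95% interval -0.41 to 1.90, edgeR adjusted p = 1.00). Both pairs of groups overlapped. Of all genes, 0.00953% passed and 9.85% had no overlap between the groups. The estimates rested on single libraries. Ckb stood at -0.02 without PE input replicate 1, at 0.44 without mock input replicate 3 and at 1.37 without mock input replicate 2. Ckm stood at -0.31 without mock input replicate 2 and at -0.17 without the 4 libraries. The scaling by library totals, which left out the composition factors, moved the all-gene median of the log2 fold change by 0.25 in input and 0.13 in IP and turned no sign of either gene in the PE comparisons.

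IP against input depended on the scaling, as TMM factors were 0.489 to 0.959 in inputs and 1.40 to 1.59 in precipitates. Library totals moved the all-gene median by 1.21 in mock and 1.09 in PE cells. In mock cells Ckb had a log2 fold change of 1.13 (SE 0.55, 95% interval -0.03 to 2.29, edgeR adjusted p = 0.483) and 2.14 with library totals (edgeR adjusted p = 0.0706). Within each replicate number its level was higher in IP, with 74.6 against 141, 162 against 309 and 48.4 against 180 CPM. A fit that takes these numbers as pairs gave 1.22 (95% interval 0.53 to 1.92, edgeR adjusted p = 0.0765). Across numbers the groups overlapped, as input replicate 2 lay above IP replicate 1. Ckm had -0.11 (SE 0.43, 95% interval -1.02 to 0.79, edgeR adjusted p = 0.993), which turned to 0.95 with library totals, to 0.29 without mock input replicate 2 and to 0.033 without mock IP replicate 3, and was -0.41 without mock input replicate 3. Neither member passed, as against 0.743% of genes that did, and neither was among the 17.9% of genes without overlap. Ckb passed without the 4 libraries, at a log2 fold change of 1.32 (edgeR adjusted p = 0.0393). Its level was then 68.2 and 46.2 CPM in mock input and 129 and 163 CPM in mock IP. That fit passed 4.82% of its 10735 genes. The Ckb estimate was 1.76 without mock input replicate 2 and 0.74 without mock IP replicate 2.

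In PE cells Ckm was lower in IP, with a log2 fold change of -0.94 that did not pass (SE 0.43, 95% interval -1.85 to -0.02, edgeR adjusted p = 0.403). It turned to 0.20 with library totals. With TMM scaling its groups did not overlap, PE input at 360 to 581 CPM and PE IP at 109 to 355 CPM, by a gap between 355 and 360 CPM. Of all genes, 22.2% had no overlap here and 2.11% passed. Without the 4 libraries Ckm passed, at -1.52 (edgeR adjusted p = 0.0127), with 415 and 533 CPM in PE input and 101 and 229 CPM in PE IP. That fit passed 9.08% of genes. The estimate was -0.59 without PE IP replicate 2. Ckb showed a log2 fold change of -0.05 in PE cells (SE 0.54, 95% interval -1.20 to 1.09, edgeR adjusted p = 0.997), which became 0.85 with library totals, 0.68 without PE input replicate 1 and 0.30 without the 4 libraries.

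The test of whether PE changed the IP effect passed neither gene. Ckm had a difference of log2 fold changes, PE minus mock, of -0.82 (SE 0.61, 95% interval -2.10 to 0.46, edgeR adjusted p = 1.00) and Ckb of -1.18 (SE 0.76, 95% interval -2.81 to 0.44, edgeR adjusted p = 1.00). The estimates kept a negative sign under every alternative run, from -1.50 to -0.48 for Ckm and from -1.81 to -0.42 for Ckb. In this comparison 0% of genes passed in edgeR. Of the 10491 genes tested, 271 had an unadjusted edgeR p under 0.05, and DESeq2 passed 2 genes. Both members were measured more precisely than most genes, whose median SE was 1.61.

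**Figure D3:**
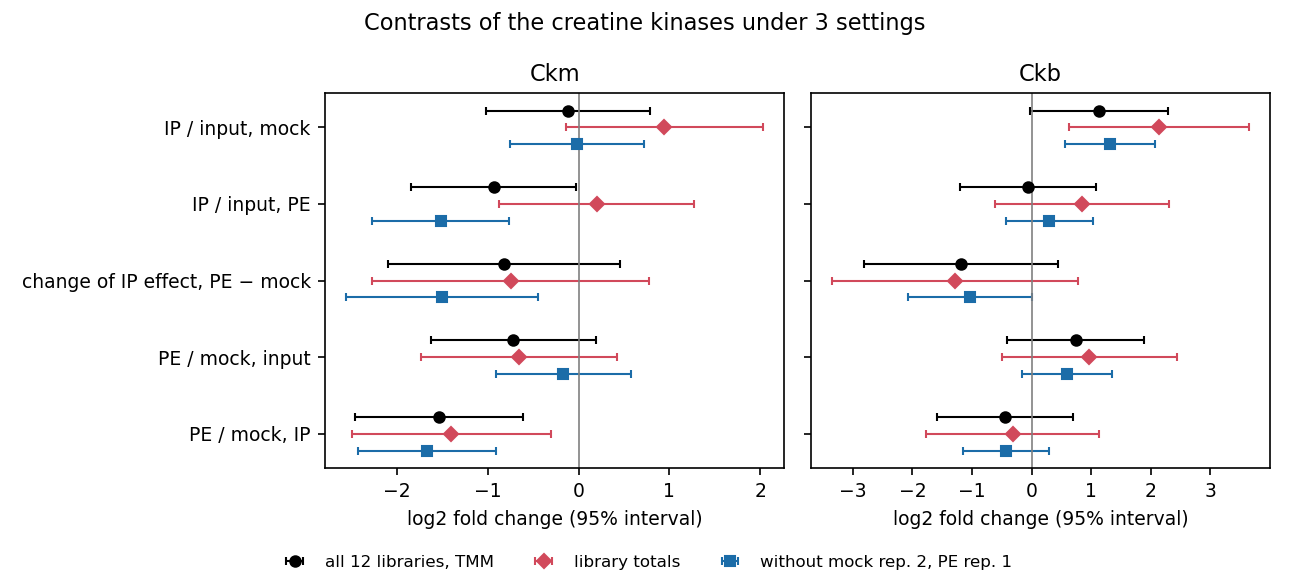
Log2 fold changes of Ckm (left) and Ckb (right) with 95% intervals in the 5 contrasts, for all 12 libraries with TMM scaling (black circles), library totals (red diamonds) and the 8 libraries outside mock replicate 2 and PE replicate 1 (blue squares). Library totals shift IP against input to the right in both genes, and the PE effect on Ckm in IP stays between -1.67 and -1.41 in these 3 settings.

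**Figure D4:**
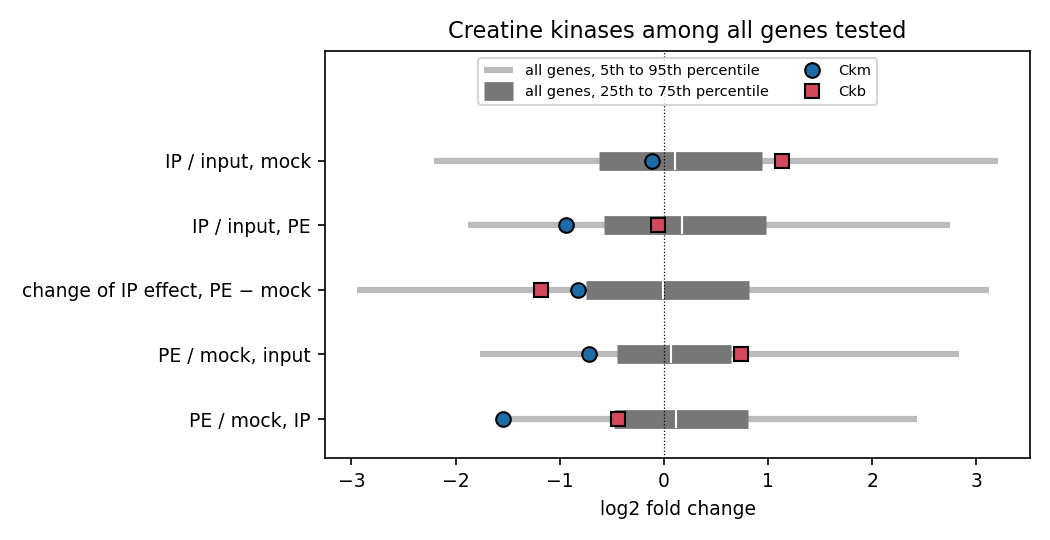
Log2 fold changes of Ckm (circles) and Ckb (squares) in the 5 contrasts beside all 10491 genes tested, drawn as the 5th to 95th (thin) and 25th to 75th percentiles (thick) with the median as a white tick. Ckm in IP under PE, at -1.54, lies near the lower end of the thin bar (-1.59), and the other points lie well inside the thin bars.

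Against all genes, Ckb in mock IP was exceeded by 20.8% of genes and Ckm by 58.9%, and the median log2 fold change was 0.11. In PE cells Ckm was exceeded by 83.6% and Ckb by 58.2%, with a median of 0.18. For PE against mock in input these shares were 82.7% for Ckm and 22.9% for Ckb (median 0.06), and in IP 94.7% and 73.5% (median 0.12).

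In both mock groups, replicate 2 was the library with the highest level of Ckm and of Ckb. Among the 5865 genes whose mean reached 10 CPM, the profiles most like that of Ckm over the 12 libraries, which differ in depth and composition and fall into 4 groups, belonged to ENSRNOG00000025570 (Pearson's r of log2(CPM + 1) 0.94, 13.6 to 51.4 CPM) and ENSRNOG00000012812 (r = 0.93, 18.6 to 132 CPM). Those most like Ckb belonged to ENSRNOG00000018991 (r = 0.96, 12.1 to 86.1 CPM) and ENSRNOG00000003029 (r = 0.95, 148 to 498 CPM). These are the highest values of r among all those genes and are given as a description.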

How the data were processed

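Raw counts per gene were deposited by the authors as 1 table without normalization. Tools listed in the submitters' processing notes are cutadapt 2.5, STAR 2.7, DESeq2 and featureCounts 1.6.4, with the build Rnor_6.0; their options (strand, multimapping) are not given in the sources used. Per the labels' protocols, 200 ng of RNA went into a 3′ end kit (Lexogen Quant-Seq, 15 cycles), so a gene's count depends on whether its end is annotated. No other gene overlaps Ckm or Ckb in the RefSeq annotation. RefSeq (47357 rat genes, GRCr8) pairs 0 Ensembl identifiers with symbols, so gene lists could not be used.

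From these counts, edgeR 4.0.16 (R 4.3.3) fitted 4 group means over 12 libraries with TMM factors, filterByExpr and robust quasi-likelihood F-tests, adjusted by the Benjamini-Hochberg method over 10491 genes. The SE is the log2 fold change divided by the square root of F. DESeq2 1.42.0 was an alternative, beside other scalings, no filter, 6 libraries, blocks and left-out libraries. The Ckb share used raw counts and exact permutation tests. Members, lists and alternatives were chosen with earlier results of these data known. The rule for other named genes took the 2 highest Pearson r for each member among genes with a mean of at least 10 CPM.

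Pairing was checked on the deviations from group means. Same-numbered input and IP correlated at 0.27, 0.32 and 0.20 in mock and 0.32, 0.02 and 0.34 in PE cells. Every mock pair and not every PE pair was thus over 0.1, but so were some differently numbered pairs, such as mock input replicate 1 with IP replicate 3 (0.17). Mock input replicate 3 correlated more with IP replicate 1 (0.23) than with its own number, so in mock cells the measure sets replicate 2 apart more than it pairs the others. PE input replicate 2 correlated more with IP replicate 3 (0.34) than with IP replicate 2 (0.02). Mock and PE of the same number correlated from -0.38 to 0.26. The highest value between mock and PE was 0.44, for mock input replicate 2 with PE input replicate 1. Their IP libraries had 0.27, below mock IP replicate 1 with PE IP replicate 3 (0.37). Mock replicate 2 and PE replicate 1 are the libraries left out together above.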

Additional observations from a re-analysis of the deposited data

How the results depend on the processing

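Every value below is a log2 fold change unless points are named. Library totals turned IP against input to 0.95 for Ckm in mock, 0.20 for Ckm in PE and 0.85 for Ckb in PE cells, by construction without correction for composition. Leaving out input and IP of mock replicate 2 and of PE replicate 1 gave -1.52 for Ckm in PE (IP against input, then passed), 1.32 for Ckb in mock (then passed), 0.30 for Ckb in PE cells and a PE difference of 12.9 points in the Ckb share, where 4 libraries against 4 cannot pass. No filter gave -1.54 for Ckm, PE against mock in IP (then passed). The log2 ratio of Ckb to Ckm gave 1.19 for IP against input (then passed). The replicate block within treatment turned Ckb in PE cells, IP against input, to 0.038, and changed no call of either gene, nor did the block over all libraries. A block on the numbers, as a sign-flip test of the Ckb share, gave 16.3 points for PE against mock (exact permutation p = 0.0625, no longer passed), and 16.3 points also came from input and IP averaged per number (exact permutation p = 0.1). The sign-flip test paired mock and PE libraries by number, a pairing that the labels do not state. It also took input and IP of a number as separate differences.

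With each library left out in turn, the values ran from -0.41 to 0.29 for Ckm and 0.74 to 1.76 for Ckb in mock IP against input, and from -1.33 to -0.59 for Ckm and -0.43 to 0.68 for Ckb in PE cells. PE against mock in input ran from -1.02 to -0.31 for Ckm and -0.018 to 1.37 for Ckb, and in IP from -1.93 to -1.19 and -0.82 to -0.05. The Ckb share differed by 8.81 to 18.3 points for IP against input and by 11.5 to 20.5 points for PE against mock. For none of these changes was the cause tested. The lowest counts, 36 for Ckb and 297 for Ckm in mock input replicate 3, limit the share there to an interval of 7.69% to 14.7%.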
